A study of Mus musculus with 18 samples.

Results

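The genes Nos2, Gch1, Ass1, Slc7a2, Arg1, Arg2, Odc1 and Acod1 cover nitric oxide synthesis, arginine use and itaconate synthesis in macrophages. They were picked by name for these roles, and make up 8 of the 20615 genes in the deposited table. Each of the 8 had a row of its own and passed the filter on low counts, as did 15789 genes in all.

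RNA-seq counts came from bone marrow-derived macrophages (BMDMs), which are macrophages grown from bone marrow with the growth factor M-CSF. There were 18 samples in 6 groups of 3, namely control, AC and CpG treated BMDMs of C57BL/6 (B6) mice and of C57BL/6.NOD-Aec1Aec2 (SjSS) mice. Mice of both strains were 7 to 12 weeks old, and SjSS mice carry the Aec1 and Aec2 intervals of the diabetes-prone NOD mouse on the B6 background, a model of Sjögren's disease. None of the 8 genes lies on the chromosomes of those intervals, which are 1 and 3. Positions of the pathway list genes named further below were not compared with the intervals. Control BMDMs were untreated. AC stands for apoptotic cells, here thymocytes killed with dexamethasone and given at 5 per macrophage for 2 h, with 3 h more after they were washed off according to the labels. The study's methods give a longer time after the wash. They took thymi from mice of both strains, and which strain's thymocytes each BMDM strain received in this experiment is not stated, so strain differences with AC cannot be told apart from a difference between the apoptotic cells given. CpG is an oligonucleotide that stimulates Toll-like receptors, and was given at 1 µM for 6 h. All 6 groups were grown to day 7 in medium with 20% L929 supernatant, the source of M-CSF, and then kept with 5% of it. The study used 3 mice for each strain, and it is not stated whether control, AC and CpG samples of equal number share a mouse.

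Macrophages that sense microbial products switch on inducible nitric oxide synthase, Nos2, which makes nitric oxide and citrulline from arginine. Arginase competes for the same arginine and turns it into ornithine, which feeds polyamine synthesis and is typical of macrophages in repair. Acod1 diverts aconitate from the citric acid cycle into itaconate, a metabolite known for its antibacterial and regulatory actions in activated macrophages.

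RefSeq (GRCm38.p6) gave a promoter window for 4 of the 8 genes, Ass1, Odc1, Gch1 and Acod1. The other genes are Nos2, Slc7a2, Arg1 and Arg2. The 4 windows are shown because they were the ones available. These 4 genes rose with AC in both strains, as did Nos2 and Arg2, for which no window was given. Each window held 250 bases before and 50 after the RefSeq start, and only bases upstream of both the RefSeq and the GENCODE M21 start are printed, 5′ to 3′ on the gene's strand. Capitals mark matches, on either strand, to the letters of 6 motifs. For NF-kB these were GGG and CC with any 5 bases between them, and for ISRE a pair of GAAA with any 2 bases between. Those of GAS were TTC and GAA with any 3 bases between. For AP-1 they were TGANTCA, a palindrome apart from its middle base. The E-box was searched as CACGTG. For TATA the letters were TATAAA. The Ass1 stretch is chr2:31470020-31470206 (+), the Odc1 stretch chr12:17544623-17544793 (+), the Gch1 stretch chr14:47189414-47189663 (-) and the Acod1 stretch chr14:103046762-103046976 (+).
Ass1: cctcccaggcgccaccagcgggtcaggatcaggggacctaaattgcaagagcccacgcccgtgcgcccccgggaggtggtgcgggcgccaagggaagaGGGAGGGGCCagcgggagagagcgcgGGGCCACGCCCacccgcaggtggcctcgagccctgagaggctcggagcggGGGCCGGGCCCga
Odc1: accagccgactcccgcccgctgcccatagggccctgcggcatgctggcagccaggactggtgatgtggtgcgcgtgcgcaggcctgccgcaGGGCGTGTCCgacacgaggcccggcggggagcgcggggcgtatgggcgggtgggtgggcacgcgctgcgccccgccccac
Gch1: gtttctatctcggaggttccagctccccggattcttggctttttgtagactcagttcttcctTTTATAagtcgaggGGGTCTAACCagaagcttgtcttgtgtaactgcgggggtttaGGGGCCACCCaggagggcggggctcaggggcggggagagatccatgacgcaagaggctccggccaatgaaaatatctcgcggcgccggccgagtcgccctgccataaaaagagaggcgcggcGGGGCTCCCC
Acod1: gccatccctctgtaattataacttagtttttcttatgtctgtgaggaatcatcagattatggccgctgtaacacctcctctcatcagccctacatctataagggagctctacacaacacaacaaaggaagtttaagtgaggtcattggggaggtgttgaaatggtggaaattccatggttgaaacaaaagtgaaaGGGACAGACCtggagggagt

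All 4 windows held the NF-kB letters, as did 50.8% of the 32851 promoter windows of that length. In Acod1 the match began at -55 from the start, in Odc1 at -159, and in Gch1 at -174, -132 and -10. Ass1 had matches beginning at -152, -126, -76 and -63 on its own strand, with opposite-strand matches at -125 and -75 that overlap those at -126 and -76. TATA letters, present in 13.6% of all windows, were found in Acod1 at -28 and on the opposite strand of Gch1 at -188, and the E-box, present in 7.15%, in Ass1 at -36. The matches at -63, -36 and -28 lie downstream of the printed stretches. ISRE letters were in 3.44% of all windows, GAS letters in 8.3% and AP-1 letters in 7.81%, and none was in these 4.

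Depth was between 30688336 and 57139662 estimated counts per sample, and levels are given as counts per 1000000 (CPM) on library totals scaled by TMM, a correction for differences in composition. The 8 macrophage markers, among them Adgre1 and Csf1r, summed to between 15105 and 23748 CPM and were detected in every group. Of 20 thymocyte and T cell markers, 18 were in the table, and without Cd28, which was at 51.3 to 76.0 CPM in untreated BMDMs, the other 17 summed to 0.917 to 1.65 CPM in control, 2.28 to 3.55 in AC and 1.07 to 2.54 in CpG treated samples. In control B6 BMDMs Rag1, Dntt and Trac were at 0 counts. With AC, these markers went both ways between the strains. Rag1, Dntt and Themis held 24, 18 and 10 counts in AC treated B6 and 3, 1 and 0 in AC treated SjSS BMDMs. Cd247, Lck and Lat held 41, 39 and 72 counts in AC treated B6 and 81, 86 and 127 in AC treated SjSS BMDMs. The 5 fibroblast markers summed to 152 to 237 CPM in SjSS and 41.2 to 136 in B6 samples. With AC, in B6 and SjSS, Col1a1 averaged 33.5 and 83.9 CPM and Col1a2 45.8 and 114. Col3a1 averaged 13.4 and 10.8 CPM there, Pdgfrb 4.37 and 5.57, and Dcn 0.277 and 0.840. The 6 dendritic cell markers summed to 2.80 to 3.75 in AC treated SjSS and 1.17 to 2.72 elsewhere. The 4 B cell markers summed to 8.97 to 26.5, and the 6 of 10 neutrophil markers in the table to 2.49 to 13.2, with the highest sums in CpG treated B6. These lists moved with strain or treatment, and their part in the results below was not tested. In bulk RNA, fewer cells expressing a gene and less of its RNA in each cell cannot be told apart.

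With AC, Nos2, Gch1, Ass1, Odc1 and Acod1 rose in both strains, and by more in SjSS BMDMs by the interaction test (adjusted p 2.34e-10 to 0.0110, edgeR). Called genes had an adjusted p under 0.05 (edgeR's quasi-likelihood test, Benjamini-Hochberg over all genes tested) together with a log2 fold change beyond 1.3 in either direction, and "rose" and "fell" are used here at that p alone. In B6 BMDMs, AC raised 5 of the 8 past both thresholds (Nos2, Gch1, Ass1, Odc1 and Acod1) and lowered none so far, when 2.43% of all genes were called higher. In SjSS BMDMs, AC raised 6 (the same 5 and Slc7a2), when 7.09% of all genes were called higher. The median log2 fold change of the 8 was 1.31 in B6 and 2.84 in SjSS, beside 0.00 and -0.02 over all genes tested.

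CpG also raised Nos2, Gch1, Ass1 and Acod1 in both strains, while Odc1 and the arginases did not rise past the fold threshold. In B6 BMDMs it raised 5 of the 8 past both thresholds (Nos2, Gch1, Ass1, Slc7a2 and Acod1), when 5.86% of all genes were called higher. In SjSS BMDMs it raised 4 (these without Slc7a2), when 4.81% of all genes were called higher. The median log2 fold change of the 8 was 1.67 in B6 and 1.06 in SjSS, beside -0.04 and -0.01 over all genes. The AC and CpG samples of a strain share their controls and followed different schedules, so their values stand side by side and were not tested against each other.

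**Figure D1:**
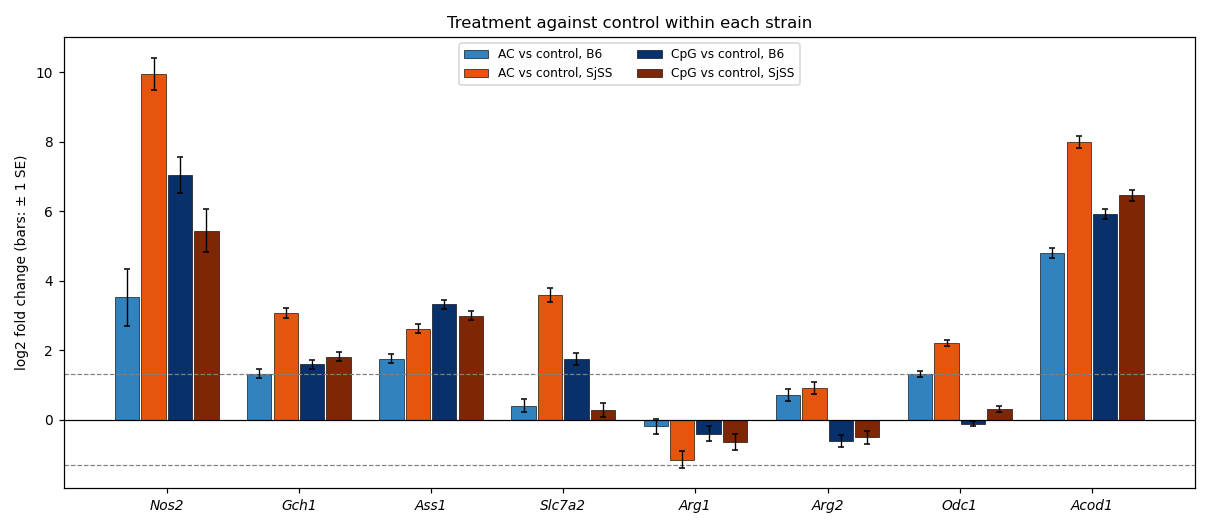
Log2 fold change of each gene with AC or CpG against untreated BMDMs of the same strain, in edgeR's model of all 18 samples (n = 3 per group, error bars ± 1 SE). Dashed lines mark a log2 fold change of 1.3 in either direction; Nos2 and Acod1 have the tallest bars in all 4 comparisons, and Arg2 is above 0 with AC and below 0 with CpG.

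Nos2 (chr11:78920787-78960255, + strand, mm10), the inducible synthase, was close to undetected in untreated cells and had its highest level in AC treated SjSS BMDMs. In control B6 samples it was at 0.048, 0 and 0.071 CPM, and in control SjSS samples at 0.0737, 0.0887 and 0 CPM, which is 7 counts over each group. With AC it was at 0.516, 0.36 and 0.669 CPM in B6 samples, from 26, 19 and 30 counts. In AC treated SjSS samples it reached 56.3, 46.8 and 50.7 CPM, far above every other sample of the series. With CpG it was at 4.68, 8.73 and 4.43 CPM in B6 and at 2.65, 1.09 and 2.95 CPM in SjSS samples. The 6 groups stood in the order AC SjSS, CpG B6, CpG SjSS, AC B6 and then the controls, and of neighbours in that order only the 2 control groups overlapped.

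The log2 fold change of Nos2 with AC was 3.52 (SE 0.82, adjusted p = 0.00199) in B6 and 9.96 (SE 0.47, adjusted p = 8.88e-13) in SjSS BMDMs. Since the controls hold so few counts, the counts of each group were also summed and divided by its summed TMM scaled library totals. The ratio of these scaled sums is given with its exact 95% interval, which covers counting error only. It was 12.1 (5.57 to 31.03) in B6 and 1042 (506 to 2593) in SjSS. With CpG the log2 fold change was 7.05 (SE 0.53, adjusted p = 1.13e-09) in B6, with a ratio of 137 (66.0 to 341). In SjSS BMDMs it was 5.44 (SE 0.62, adjusted p = 4.84e-07), with a ratio of 46.3 (22.2 to 116). Leaving out SjSS control 3, which had 0 counts, lowered the SjSS values to 9.28 with AC and 4.77 with CpG, and both stayed called.

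Gch1 (chr14:47153895-47189414, - strand), which makes the first step of tetrahydrobiopterin (BH4), the cofactor Nos2 needs, rose with both treatments in both strains. Its levels were 30.2, 33.2 and 33.3 CPM in control, 75.9, 84.3 and 82.0 in AC and 92.3, 105 and 94.9 in CpG treated B6 BMDMs. In SjSS BMDMs they were 26.0, 26.3 and 15.7 CPM in control, 180, 192 and 197 in AC and 81.7, 73.9 and 81.3 in CpG treated samples. The 3 AC treated SjSS samples were above all others, and AC treated B6 and CpG treated SjSS samples overlapped. On the log2 scale the AC response was 1.33 (SE 0.12, adjusted p = 1.01e-07) in B6 and 3.07 (SE 0.13, adjusted p = 2.56e-13) in SjSS. The CpG response was 1.60 (SE 0.13, adjusted p = 1.91e-09) and 1.81 (SE 0.13, adjusted p = 6.36e-10). The B6 response to AC was just past the fold threshold, and fell short of it at 1.281 without B6 control 1, at 1.296 without B6 AC 2 and at 1.25 on library totals without TMM.

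Ass1 (chr2:31470207-31520673, + strand), which with Asl recycles citrulline to arginine, rose with both treatments, and its highest levels were with CpG. In B6 BMDMs it was at 3.55, 4.61 and 5.40 CPM in control, 15.5, 16.0 and 14.1 in AC and 47.5, 45.4 and 42.7 in CpG treated samples. In SjSS BMDMs it was at 5.60, 6.63 and 6.69 CPM in control, 34.4, 39.5 and 42.0 in AC and 43.4, 54.1 and 53.1 in CpG treated samples. CpG treated samples of both strains overlapped, while the AC treated samples of SjSS lay above those of B6. AC changed it by a log2 fold change of 1.75 (SE 0.13, adjusted p = 3.59e-09) in B6 and 2.62 (SE 0.12, adjusted p = 1.09e-12) in SjSS. CpG gave 3.33 (SE 0.13, adjusted p = 8.01e-14) and 3.00 (SE 0.12, adjusted p = 3.85e-13).

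The level of Ass1 depends on how reads were shared with Gm5424, a gene of the table on chromosome 10 (chr10:62071015-62072610). Of the 31-base stretches of the annotated transcripts of Gm5424, 84.7% also occur in those of Ass1, and the estimated counts of Ass1 were not whole in any of the 18 samples. Gm5424 held 82776 counts over the 18 samples, 3.86 times the 21460 of Ass1. Its level was between 3.44 and 4.53 times that of Ass1 in every sample. With both summed, a choice made after the data were seen, the mean level was 21.7 ± 2.71 CPM (SD, n = 3) in control and 73.3 ± 4.98 in AC treated B6, and 28.5 ± 3.16 in control and 183 ± 19.1 in AC treated SjSS BMDMs. The 4 responses of the sum were 1.76, 2.68, 3.35 and 3.13 on the log2 scale, in the order AC B6, AC SjSS, CpG B6 and CpG SjSS, and all 4 stayed called.

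Slc7a2 (chr8:40862396-40922309, + strand), a cationic amino acid transporter that brings arginine into the cell, responded to AC in SjSS and to CpG in B6 BMDMs. The B6 samples were at 9.88, 8.26 and 6.70 CPM in control, 12.1, 11.4 and 9.29 in AC and 36.5, 25.5 and 21.0 in CpG treated samples. The SjSS samples were at 7.64, 6.51 and 5.80 CPM in control, 84.9, 73.6 and 81.5 in AC and 8.79, 6.37 and 9.02 in CpG treated samples. AC treated SjSS samples were highest and CpG treated B6 samples next, and the other 4 groups overlapped with their neighbours in order. The log2 fold change was 3.59 (SE 0.19, adjusted p = 5.56e-12) with AC in SjSS and 1.74 (SE 0.18, adjusted p = 9.53e-08) with CpG in B6. It was 0.40 (SE 0.18, adjusted p = 0.0964) with AC in B6 and 0.28 (SE 0.20, adjusted p = 0.244) with CpG in SjSS. The AC value in B6 passed the p threshold without B6 control 1 (0.55, adjusted p = 0.0428) or without B6 CpG 1 (0.40, adjusted p = 0.0395). With the replicate number fitted as a block within strain it passed too (0.41, adjusted p = 0.00415). So did the CpG value in SjSS (0.28, adjusted p = 0.0380). Slc7a2 shares exonic positions with Gm26584 on the opposite strand, which held 77 counts over all samples.

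**Figure D2:**
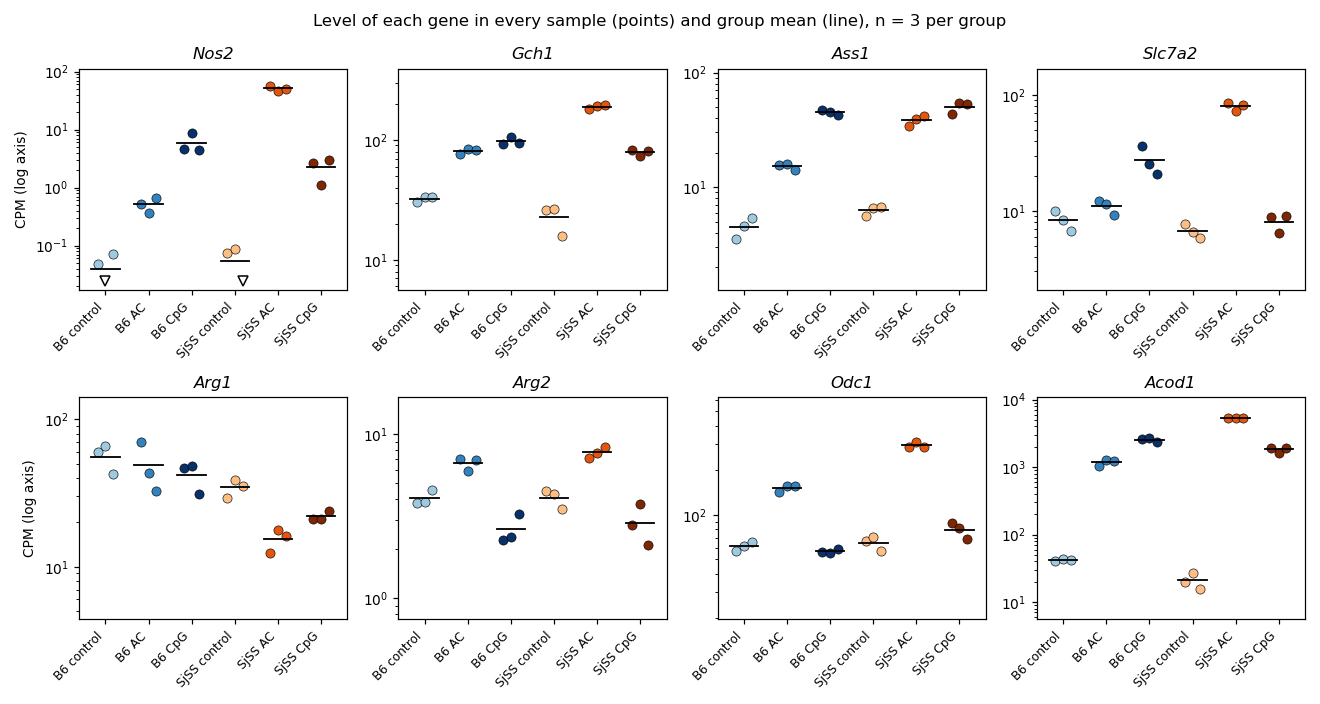
CPM of the 8 genes in every sample, on log axes that differ between panels. Points are samples, lines are means of 3, and open triangles mark samples of Nos2 with 0 counts; AC treated SjSS samples are highest for Nos2, Gch1, Slc7a2, Odc1 and Acod1 and lowest for Arg1.

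Arg1 (chr10:24915208-24927471, - strand), the cytosolic arginase, had its lowest levels in AC treated SjSS BMDMs. Levels in B6 BMDMs were 59.6, 65.6 and 42.2 CPM in control, 70.3, 43.1 and 32.6 in AC and 46.8, 48.4 and 31.2 in CpG treated samples. Levels in SjSS BMDMs were 29.4, 38.7 and 35.4 CPM in control, 12.4, 17.9 and 16.2 in AC and 21.0, 21.0 and 23.8 in CpG treated samples. The 3 B6 groups overlapped, while the 3 SjSS groups were separate from each other. The log2 fold change in SjSS was -1.15 (SE 0.23, adjusted p = 3.36e-04) with AC and -0.65 (SE 0.23, adjusted p = 0.0227) with CpG, neither past the fold threshold. On library totals without TMM the AC value was -1.56 and was called. The CpG value missed the p threshold without any 1 of SjSS control 2, SjSS control 3, SjSS CpG 1 or SjSS CpG 2 (adjusted p 0.0554 to 0.0780). In B6 it was -0.20 (SE 0.22, adjusted p = 0.530) with AC and -0.41 (SE 0.22, adjusted p = 0.127) with CpG. The AC value in B6 was 0.02 (adjusted p = 0.952) without B6 AC 3, and -0.56, past the p threshold (adjusted p = 0.0377), without B6 AC 1. The CpG value in B6 passed it without B6 control 3 (-0.57, adjusted p = 0.0447) and on library totals without TMM (-0.59, adjusted p = 0.0278). It also passed with the replicate number fitted as a block within strain (-0.41, adjusted p = 0.00804).

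Arg2 (chr12:79130777-79156302, + strand), the mitochondrial arginase, rose with AC and fell with CpG in both strains, by less than the fold threshold. The B6 samples were at 3.78, 3.84 and 4.56 CPM in control, 7.09, 5.98 and 7.00 in AC and 2.28, 2.37 and 3.26 in CpG treated samples. The SjSS samples were at 4.51, 4.29 and 3.52 CPM in control, 7.13, 7.72 and 8.35 in AC and 2.81, 3.76 and 2.10 in CpG treated samples. AC treated samples were above all others, CpG treated samples of B6 were below their controls, and those of SjSS overlapped theirs. AC gave a log2 fold change of 0.72 (SE 0.17, adjusted p = 0.00226) in B6 and 0.92 (SE 0.17, adjusted p = 1.37e-04) in SjSS. CpG gave -0.62 (SE 0.18, adjusted p = 0.00618) and -0.51 (SE 0.18, adjusted p = 0.0235). The last value missed the threshold without any 1 of SjSS control 1, SjSS control 2, SjSS CpG 1 or SjSS CpG 3 (adjusted p 0.0595 to 0.147), and in a fit of its 2 groups alone (adjusted p = 0.0597). Arg2 overlaps Vti1b on the opposite strand, which held 66955 counts against 3984 for Arg2, and as the strand setting of the counting is not given, reads in the shared stretch cannot be told apart.

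Odc1 (chr12:17544873-17551503, + strand), ornithine decarboxylase, the first enzyme of polyamine synthesis, rose with AC in both strains. Levels in B6 BMDMs were 57.1, 61.7 and 65.1 CPM in control, 142, 156 and 156 in AC and 55.6, 55.4 and 59.1 in CpG treated samples. Levels in SjSS BMDMs were 66.1, 70.3 and 56.7 CPM in control, 286, 311 and 287 in AC and 88.1, 81.2 and 69.0 in CpG treated samples. AC treated SjSS samples were highest, AC treated B6 samples next, and the other 4 groups overlapped with their neighbours in order. Its log2 fold change with AC was 1.303 (SE 0.09, adjusted p = 9.26e-10) in B6 and 2.20 (SE 0.09, adjusted p = 9.43e-14) in SjSS. With CpG it was -0.11 (SE 0.09, adjusted p = 0.278) in B6 and 0.30 (SE 0.09, adjusted p = 0.00533) in SjSS. On library totals without TMM the B6 value was -0.29 and passed the p threshold (adjusted p = 0.00522), while the SjSS value was 0.18 and did not (adjusted p = 0.0766).

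The B6 response of Odc1 to AC lay at the fold threshold, and was short of it at 1.25 without B6 control 1, at 1.28 without B6 AC 2 or B6 AC 3, and at 1.23 on library totals without TMM. In the table, 10 genes outside the Odc1 locus share at least 10% of their 31-base stretches with Odc1 transcripts, among them Gm7993 and Gm9115. They held 32426 counts together, 33.1% of the 98072 of Odc1. With these summed the AC response was 1.22 in B6 and 2.10 in SjSS BMDMs, so that the B6 value was not called.

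Acod1 (chr14:103046977-103056574, + strand), the itaconate synthase, was the most abundant of the 8 per length in all treated groups. In B6 BMDMs it was at 40.2, 44.1 and 42.1 CPM in control, 1021, 1284 and 1217 in AC and 2631, 2688 and 2328 in CpG treated samples. In SjSS BMDMs it was at 20.0, 27.0 and 15.8 CPM in control, 5250, 5311 and 5376 in AC and 1925, 1614 and 1933 in CpG treated samples. No 2 groups that are neighbours in this order (AC SjSS, CpG B6, CpG SjSS, AC B6, control B6, control SjSS) overlapped. Its log2 fold change with AC was 4.801 (SE 0.15, adjusted p = 6.53e-14) in B6 and 7.999 (SE 0.17, adjusted p = 3.52e-17) in SjSS. The CpG response was 5.92 (SE 0.16, adjusted p = 6.61e-16) and 6.46 (SE 0.16, adjusted p = 4.26e-16). Per kb of annotated exons, Acod1 averaged 2025 ± 24.2 CPM (SD, n = 3) in AC treated SjSS BMDMs, while the next of the 8 in that group, Odc1, averaged 86.5 ± 4.08.

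Strains were then compared under each treatment. In untreated BMDMs, edgeR and DESeq2 called 0 of the 8, a count near the background of 2.01% of all genes called. With 4 of the 8 under 0.05 before adjustment, the same 4 passed the adjusted threshold without regard to fold, as did 19.6% of all genes. Acod1 was lower in SjSS (log2 fold change -1.02, SE 0.13, adjusted p = 3.32e-05), as were Gch1 (-0.51, SE 0.13, adjusted p = 0.00841) and Arg1 (-0.70, SE 0.22, adjusted p = 0.0349), and Ass1 was higher (0.48, SE 0.13, adjusted p = 0.0177). The Arg1 value missed the p threshold without any 1 of 5 libraries (B6 control 1 and 2 and the 3 SjSS controls, adjusted p up to 0.146), and that of Ass1 without any 1 of B6 control 1, SjSS control 2 or SjSS control 3 (0.0557 to 0.102). Fitted on the control groups alone, Gch1 (adjusted p = 0.0651) and Ass1 (adjusted p = 0.0715) missed it too.

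With AC, the 8 genes differed most between strains. In SjSS, 4 were called higher than in B6 (Nos2, Slc7a2, Acod1 and Ass1), when 6.24% of all genes were, and 1 was called lower (Arg1), when 2.69% were. The log2 fold change of SjSS over B6 was 6.65 (SE 0.34, adjusted p = 8.78e-12) for Nos2, and the ratio of summed counts, scaled by library totals as above, was 101 (exact 95% interval 80.1 to 128). It was 2.87 (SE 0.18, adjusted p = 1.63e-10) for Slc7a2 and 2.18 (SE 0.13, adjusted p = 8.17e-11) for Acod1. For Gch1 it was 1.23 (SE 0.12, adjusted p = 9.93e-08) and for Odc1 0.96 (SE 0.08, adjusted p = 1.83e-08), both higher in SjSS but short of the fold threshold. Ass1, at 1.35 (SE 0.11, adjusted p = 1.26e-08), was short of it without B6 AC 3 (1.297) or SjSS AC 3 (1.283), and at 1.05 on library totals without TMM. Arg1, at -1.65 (SE 0.23, adjusted p = 1.03e-05), was short of it without B6 AC 1 (-1.29). Arg2 was at 0.21 (SE 0.17, adjusted p = 0.309), and at -0.09 on library totals without TMM.

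With CpG the strain difference ran the other way for Nos2 and Slc7a2, which were the 2 genes called, both lower in SjSS, when 0.792% of all genes were called lower. The log2 fold change was -1.78 (SE 0.18, adjusted p = 1.63e-06) for Slc7a2 and -1.39 (SE 0.29, adjusted p = 0.00213) for Nos2. Summed counts of Nos2, scaled by library totals as above, were 2.54 times as high in B6 as in SjSS (exact 95% interval 2.21 to 2.91). The Nos2 value fell short of the fold threshold without B6 CpG 2 (-1.02) or SjSS CpG 2 (-1.07), the highest and the lowest sample, and at -1.296 on library totals without TMM. Arg1 (-0.94, SE 0.23, adjusted p = 0.00686) and Acod1 (-0.48, SE 0.13, adjusted p = 0.0104) were lower and Odc1 (0.49, SE 0.09, adjusted p = 4.87e-04) higher in SjSS, short of the fold threshold, and without SjSS CpG 2 Acod1 missed the p threshold (adjusted p = 0.0609). Gch1 was at -0.30 (SE 0.12, adjusted p = 0.0878), and passed at 0.0471 in DESeq2, 0.0179 in a fit of the 2 groups alone and 0.00203 without SjSS control 3. Ass1 was at 0.15 (SE 0.11, adjusted p = 0.370) and Arg2 at 0.13 (SE 0.19, adjusted p = 0.697).

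**Figure D3:**
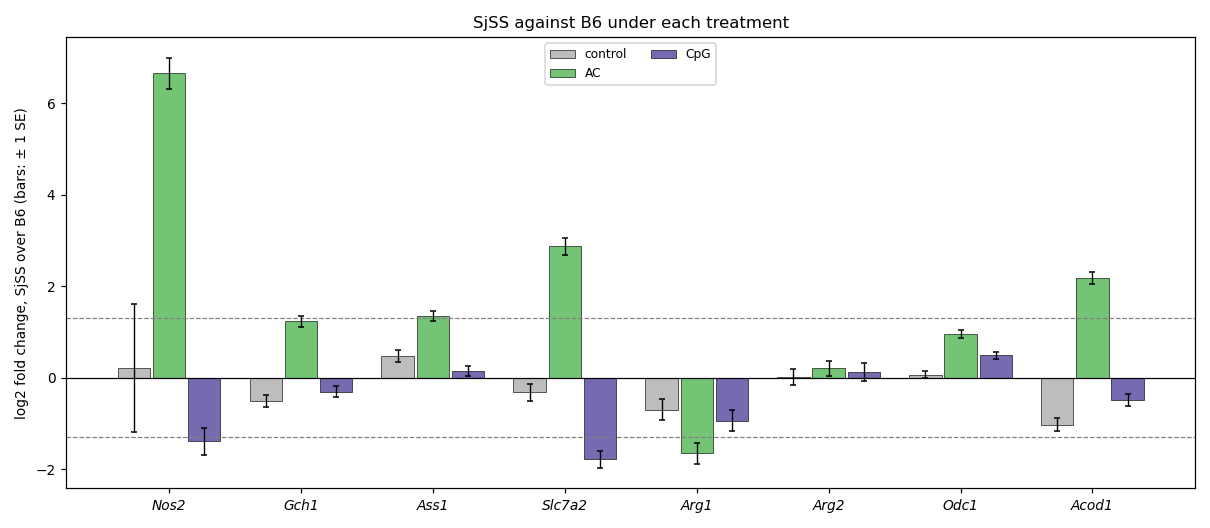
Log2 fold change of SjSS over B6 BMDMs for each gene in control, AC and CpG treated samples, in edgeR's model of all 18 samples (n = 3 per group, error bars ± 1 SE). Dashed lines mark a log2 fold change of 1.3 in either direction; the AC bars of Nos2, Slc7a2, Acod1 and Ass1 lie above it, and the CpG bars of Nos2 and Slc7a2 and the AC bar of Arg1 below it.

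Whether the responses themselves differed between strains was tested by the interaction of strain and treatment, given as the SjSS response less the B6 response on the log2 scale. For AC, 4 of the 8 were called, all with the greater response in SjSS, when 4.76% of all genes were called so. These were Nos2 (6.44, SE 1.88, adjusted p = 0.0110), Acod1 (3.20, SE 0.19, adjusted p = 2.34e-10), Slc7a2 (3.19, SE 0.26, adjusted p = 1.56e-08) and Gch1 (1.74, SE 0.18, adjusted p = 2.54e-07). Odc1 (0.89, SE 0.12, adjusted p = 8.84e-06) and Ass1 (0.87, SE 0.18, adjusted p = 7.23e-04) had the same direction, and Arg1 the opposite one (-0.95, SE 0.32, adjusted p = 0.0252), short of the fold threshold. The Nos2 value rests on the few counts of the controls, and missed the p threshold without B6 control 1 (6.32, adjusted p = 0.0608) or B6 control 3 (5.85, adjusted p = 0.112). Without SjSS control 3, which had 0 counts, it was 5.77 (adjusted p = 0.0190). That of Arg1 missed it without any 1 of B6 control 3, B6 AC 1, SjSS control 2 or SjSS AC 1 (adjusted p 0.0598 to 0.0993), and was -0.59 without B6 AC 1.

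For CpG, 1 of the 8 was called, Slc7a2, with the smaller response in SjSS (-1.46, SE 0.26, adjusted p = 0.00259), when 0.329% of all genes were called in that direction. Without B6 CpG 1, the highest sample of its group, it was -1.21 (adjusted p = 0.00421). Odc1 was at 0.42 (SE 0.12, adjusted p = 0.0490), and missed the p threshold without any 1 of 15 of the 18 libraries (adjusted p 0.0531 to 0.151), with DESeq2's size factors (0.0643), with a filter of 10 counts (0.0506) and in a fit of its 4 groups alone (0.101). Acod1 was at 0.54 (SE 0.18, adjusted p = 0.0951), and passed the p threshold without SjSS control 2 (0.75, adjusted p = 0.00705) and on library totals without TMM (0.59, adjusted p = 0.0426). Nos2 was at -1.60 (SE 1.53, adjusted p = 0.613).

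Nos2 and Arg1, which compete for arginine, were then set side by side within each sample, per kb of annotated exons. In AC treated SjSS BMDMs the level of Nos2 per kb was 2.29, 1.32 and 1.58 times that of Arg1. In every other sample Arg1 was the higher. It was 269, 238 and 96.7 times the level of Nos2 in AC treated B6 samples. With CpG it was 19.8, 10.98 and 13.9 times that of Nos2 in B6 and 15.7, 38.3 and 16.0 times in SjSS samples. Arg2, the other arginase, is not part of these ratios, which do not set Nos2 against both arginases together. In AC treated SjSS samples 1, 2 and 3, Arg2 was at 4.99, 5.40 and 5.84 CPM per kb. Arg1 was at 5.57, 8.01 and 7.28 there, and Nos2 at 12.7, 10.6 and 11.5.

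**Figure D4:**
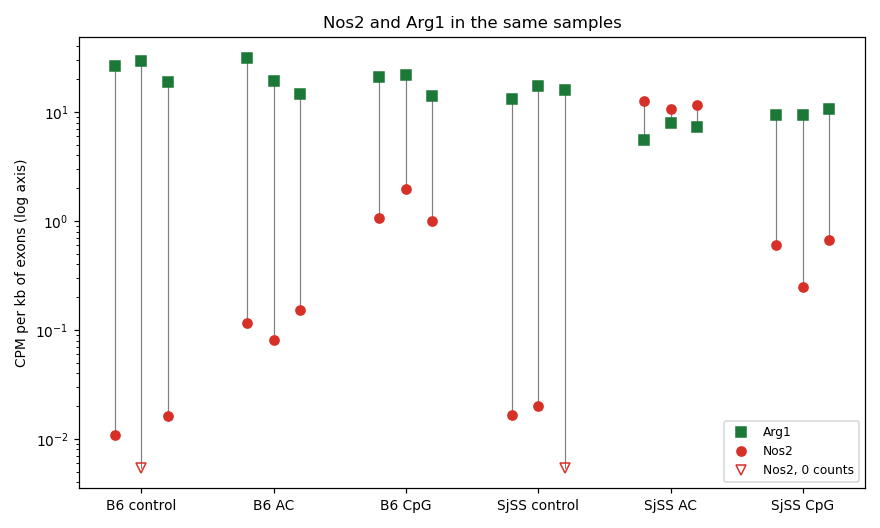
CPM per kb of exons, on a log axis, of Nos2 (circles) and Arg1 (squares) in each of the 18 samples, joined by a line within a sample; open triangles mark 0 counts of Nos2. The 3 AC treated SjSS samples, with ratios of 2.29, 1.32 and 1.58, are the ones in which Nos2 lies above Arg1.

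Around the 8 genes, 4 lists of other genes of the same pathways were examined. Over all genes tested, 4.47% and 12.9% were called in either direction with AC and 12.7% and 9.26% with CpG, in B6 and SjSS. By the adjusted p alone, 20.0% and 28.6% of all genes were higher and 18.3% and 29.4% lower with AC, and 28.1% and 27.8% were higher and 29.8% and 26.4% lower with CpG. In the list for BH4 and nitric oxide handling, 12 of 16 genes were tested, and edgeR and DESeq2 called 0 with AC or CpG in either strain. Under 0.05 before adjustment were 5 in B6 and 5 in SjSS with AC, and 8 and 9 with CpG. By the adjusted p alone, 3 of the 12 were lower in each strain with AC, and 6 of the 12 in each strain with CpG, while 1 was higher in B6 with each treatment and none in SjSS. Among them, and named after their values were seen, were Nostrin, which binds the endothelial synthase and was at -0.95 (adjusted p = 3.62e-06) in B6 and -0.83 (adjusted p = 2.31e-05) in SjSS with CpG, and Pts, an enzyme of BH4 synthesis, at -0.76 (adjusted p = 8.67e-07) and -0.42 (adjusted p = 8.00e-04). The median log2 fold change of this list was 0.04 and -0.08 with AC and -0.26 and -0.36 with CpG, in B6 and SjSS. Between strains, Ddah1, which breaks down methylated arginines that inhibit the synthases, was higher in SjSS in control (0.72, SE 0.25, adjusted p = 0.0474), AC (1.12, SE 0.25, adjusted p = 9.22e-04) and CpG treated BMDMs (1.35, SE 0.27, adjusted p = 0.00131), past the fold threshold in the last. Its interactions with AC (adjusted p = 0.402) and CpG (adjusted p = 0.347) missed the p threshold. The position of Ddah1 was not compared with the Aec1 and Aec2 intervals.

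Of 8 genes of basic amino acid transport, 7 were tested, and by the adjusted p alone 4 and 3 were higher and 1 and 3 lower with AC, and 4 and 3 higher with CpG, in B6 and SjSS. Slc7a1, the general cationic transporter, rose from 15.1 ± 0.291 to 20.8 ± 1.91 CPM with AC and to 35.8 ± 8.47 with CpG in B6, and from 11.4 ± 0.101 to 24.9 ± 2.40 and 32.7 ± 2.55 CPM in SjSS BMDMs (SD, n = 3). Of these 4 responses, that to CpG in SjSS was called (1.52, SE 0.12, adjusted p = 4.71e-09), beside 1.25 (SE 0.12, adjusted p = 3.67e-08) in B6. Slc7a3 was called lower with AC in SjSS (-1.89, SE 0.61, adjusted p = 0.0120), at a mean of 0.259 CPM in control and 0.0659 in AC treated samples, and was at -0.60 (adjusted p = 0.437) in B6. It held 132 counts over the 18 samples. Slc25a29, named after its values were seen, was called lower with AC in B6 (-1.42, SE 0.50, adjusted p = 0.0301), though its samples overlapped at means of 0.353 and 0.128 CPM from 194 counts over the 18 samples, and it was at -0.43 (adjusted p = 0.507) in SjSS. The medians of the list were 0.17 and -0.43 with AC and 0.32 and 0.03 with CpG, in B6 and SjSS.

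Of 20 genes of ornithine and polyamine metabolism, 19 were tested, and by the adjusted p alone 7 and 7 were higher and 4 and 2 lower with AC, and 7 and 6 higher and 7 and 5 lower with CpG, in B6 and SjSS. Paox, which oxidises acetylated polyamines, fell in all 4 responses, from 22.7 ± 1.54 CPM in control B6 to 10.1 ± 1.02 with AC and 3.10 ± 0.372 with CpG, and from 19.0 ± 1.98 CPM in control SjSS to 6.31 ± 0.409 and 3.72 ± 0.348 (SD, n = 3). It was called with AC in SjSS (-1.59, SE 0.11, adjusted p = 1.83e-10), beside -1.17 (SE 0.10, adjusted p = 3.79e-08) in B6, and with CpG in B6 (-2.88, SE 0.11, adjusted p = 1.28e-13) and SjSS (-2.36, SE 0.11, adjusted p = 2.30e-12). Amd1, which makes the aminopropyl donor of polyamine synthesis, was called higher with CpG in B6 (1.34, SE 0.10, adjusted p = 5.10e-10) and SjSS (1.58, SE 0.10, adjusted p = 8.15e-11). With CpG, Sat1, which acetylates polyamines, fell in B6 (-1.48, SE 0.07, adjusted p = 7.44e-13) and in SjSS (-1.25, SE 0.07, adjusted p = 1.07e-11), and was called in the former. Azin1, which frees Odc1 from its antizyme, rose in B6 (1.08, SE 0.11, adjusted p = 8.48e-08) and in SjSS (1.39, SE 0.11, adjusted p = 3.75e-09), and was called in the latter. Neither interaction with CpG passed the p threshold (adjusted p = 0.162 for Sat1 and 0.277 for Azin1). With AC in B6, edgeR and DESeq2 called 0 of the 19, with 12 under 0.05 before adjustment. The medians were 0.04 and 0.12 with AC and -0.05 and 0.03 with CpG, in B6 and SjSS.

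All 20 genes around citrate, aconitate, itaconate and succinate were tested, and by the adjusted p alone 5 and 6 were higher and 5 and 7 lower with AC, and 5 and 4 higher and 9 and 9 lower with CpG, in B6 and SjSS. Slc13a3, a sodium-coupled carrier of dicarboxylates, was called higher in all 4 responses. It went from 225 ± 26.5 CPM in control B6 to 700 ± 122 with AC (1.64, SE 0.15, adjusted p = 5.41e-08) and to 1206 ± 257 with CpG (2.42, SE 0.15, adjusted p = 6.57e-11). In SjSS BMDMs it went from 143 ± 17.3 CPM to 407 ± 29.3 with AC (1.52, SE 0.15, adjusted p = 3.69e-08) and to 651 ± 82.9 with CpG (2.19, SE 0.15, adjusted p = 3.56e-10). Levels of Slc13a3 were lower in SjSS than in B6 in control (-0.66, SE 0.14, adjusted p = 0.00343), AC (-0.78, SE 0.14, adjusted p = 1.72e-04) and CpG treated BMDMs (-0.89, SE 0.14, adjusted p = 1.98e-04). Idh1, the cytosolic isocitrate dehydrogenase (-1.87, SE 0.08, adjusted p = 1.98e-13), and Auh (-1.302, SE 0.14, adjusted p = 1.11e-07) were called lower with CpG in B6, where DESeq2 called 1 of the list lower. In SjSS they fell by less than the fold threshold, at -1.19 (adjusted p = 1.32e-10) and -0.76 (adjusted p = 8.84e-05). Mean levels of Idh1 were 394 ± 30.3 CPM in control B6 and 243 ± 12.0 in control SjSS BMDMs (SD). With CpG they were 108 ± 5.1 and 106 ± 12.5 CPM, so the strains were apart in control and close with CpG. Auh was at 19.2 and 17.1 CPM in control and at 7.79 and 10.1 with CpG, in B6 and SjSS. The position of Idh1 was not compared with the Aec1 and Aec2 intervals. The medians were 0.02 and 0.04 with AC and -0.11 and -0.15 with CpG, in B6 and SjSS.

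**Figure D5:**
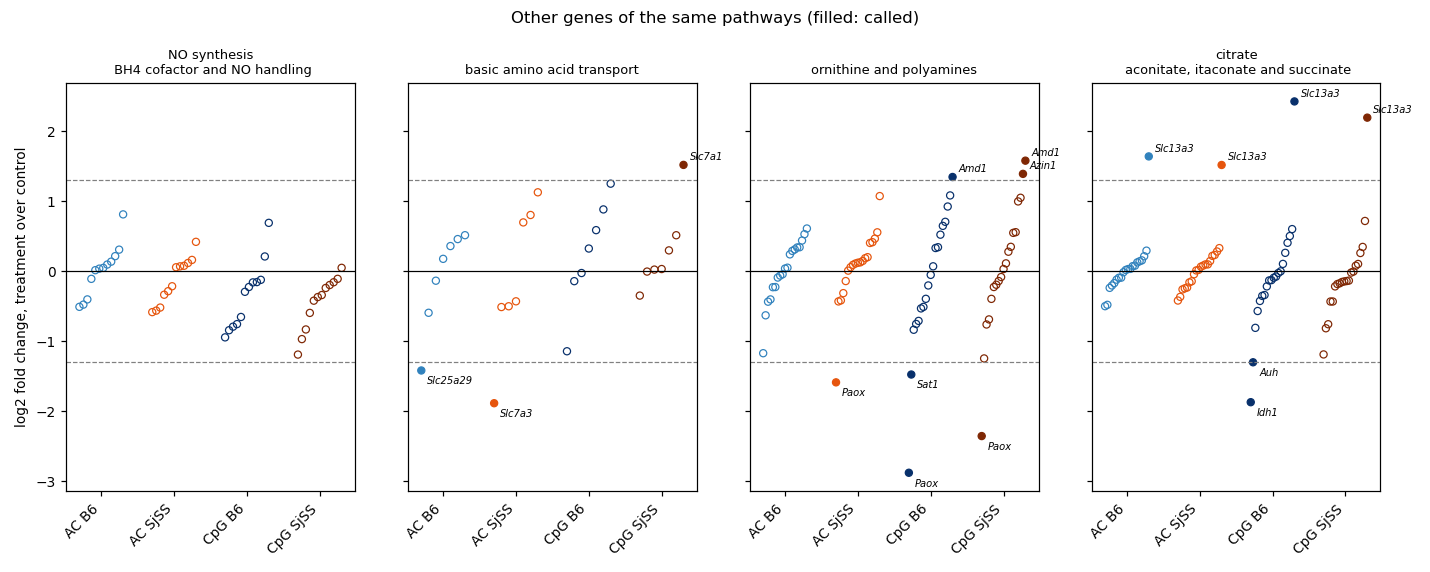
Log2 fold change with AC or CpG against control in B6 and SjSS BMDMs for every tested gene of the 4 pathway lists, sorted within each column. Filled points are called genes, which are named, and dashed lines mark 1.3 in either direction; Slc13a3 is called higher in all 4 responses and Paox lower in 3.

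Last, the tested genes whose log2 CPM followed each of the 8 most closely over the 18 samples were listed by Pearson's r, as a description, since the samples share 6 groups. For Nos2 they were Naa25 (0.991), Gbp6 (0.986) and Cd274 (0.986), for Gch1 Slfn2 (0.992), Rab20 (0.991) and Ppp2r2a (0.989), and for Slc7a2 Tram2 (0.968), Mndal (0.964) and Nfxl1 (0.955). For Acod1 they were Gm21399 (0.993), Psmd7 (0.993) and Nfkb2 (0.992). For Ass1 they were Gm5424 (0.997), which shares sequence with it, Cxcl5 (0.989) and Hcls1 (0.981), and for Odc1 Gm9115 (0.993) and Gm7993 (0.983), which likewise share sequence, and Sh3bgrl2 (0.976). Arg1, which fell with AC in SjSS, was followed by Lima1 (0.933), Incenp (0.926) and Rasgrp2 (0.899), and Arg2 by Rcan1 (0.956), Dusp5 (0.942) and Lasp1 (0.942).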

How the data were processed

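The labels placed the 18 BMDM samples in 6 groups. The authors aligned reads to mm10 with STAR, and estimated counts per gene with the E/M tool of Partek Flow. These estimated counts were deposited without normalization in 1 table of 20615 genes, with 34.4% of values not whole (tolerance 0.01). The annotation release and strand setting are not given in the sources used here. The submitters' processing notes name DESeq2 3.13.

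Counts were rounded and analysed in R 4.3.3 with edgeR 4.0.16. The filterByExpr function left 15789 genes. Libraries were scaled by TMM, a mean was fitted for each of the 6 groups over all 18 samples by the quasi-likelihood method, and p-values of 9 comparisons were adjusted by Benjamini-Hochberg over all genes tested. The SE is the log2 fold change divided by the square root of F. P-values measure the spread between these samples. The thresholds are those of the paper's methods. Totals of 30688336 to 57139662 counts per sample set the depth. Counting error is largest where counts are few, as for Nos2 in control samples, with 7 counts per group, and in AC treated B6 samples, and for Slc7a3 and Slc25a29.

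CPM per kb used the exon union of GENCODE M21. Shared 31-base stretches were counted between its transcripts, on both strands. The nearest genes are the 3 with the highest Pearson's r of log2 CPM (prior count 2). Pathway genes were named when called with samples that do not overlap between groups, at most 4 per list and comparison, and Slc25a29, Nostrin and Pts were added later. Gucy1a1 and Agmat were not analysed here, 1 further gene of the nitric oxide list is not reported here and was left out of its counts, and 2 genes were matched by an older symbol. The alternatives were DESeq2 1.42.0, DESeq2's size factors, library totals without TMM, no filter, a filter of 10 counts in 3 samples, no fold threshold, fits of only the groups being compared, a block for the replicate number, Spearman correlation and each sample left out. Sums with near-identical copies were added after the data were seen. The pipeline was tested on simulated data. The 8 genes and the lists were chosen with earlier results of these data known. Python 3.11.15 with scipy 1.17.1 gave the exact intervals, and matplotlib 3.10.9 the figures.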

Additional observations from a re-analysis of the deposited data

Results flagged for a closer look

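The response to treatment differed between the strains by the interaction test, past both the p and the fold threshold, for 5 results (edgeR's quasi-likelihood test, Benjamini-Hochberg over all genes tested). With AC, the SjSS response exceeded the B6 response by 6.44 on the log2 scale for Nos2, by 3.20 for Acod1, by 3.19 for Slc7a2 and by 1.74 for Gch1. With CpG, the response of Slc7a2 in SjSS less that in B6 was -1.46. Each B6 and SjSS response shares the control samples of its strain with the other treatment. For Slc7a2 the sign of the interaction with AC is opposite to that with CpG. That of Nos2 with AC missed the p threshold without B6 control 1 (adjusted p = 0.0608) or B6 control 3 (adjusted p = 0.112) and was 5.77 without SjSS control 3, and that of Slc7a2 with CpG was -1.21 without B6 CpG 1.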

How the results depend on the processing

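Each of the 8 genes was recomputed in each of the 9 comparisons. All 72 values kept their direction, and were called or not called as before, with DESeq2, with its size factors, with the filter of 10 counts and with the replicate number as a block, and 48 of 48 did with a block within strain. Deviations from the group mean correlated at 0.0198 to 0.264 (median 0.0901, over 0.1 in 9 of 18 pairs) between samples of 1 strain with the same number. Between samples of 1 strain with different numbers they were at -0.252 to 0.0745 (median -0.0521). Within strain, 17 of 18 samples correlated best with their own number. As the sources do not state whether equal numbers share a mouse, the main fit did not pair them, and a pairing is not excluded. Slc7a2 with AC in B6 passed the p threshold with the block (0.41, adjusted p = 0.0245), and with the block within strain so did it (adjusted p = 0.00415), Slc7a2 with CpG in SjSS (0.28, adjusted p = 0.0380) and Arg1 with CpG in B6 (-0.41, adjusted p = 0.00804), all short of the fold threshold. The replicate block left the count of members called at 5, 6, 5 and 4 in the 4 responses. Odc1 with AC in B6 was not called with no filter (1.29), in the compared groups alone (1.29) or summed with its copies (1.22), and 71, 70 and 71 of the values kept direction and call there. In the compared groups alone Nos2 could not be tested in control samples. Library totals without TMM moved the median of all genes by -0.41 in the AC response of SjSS and -0.30 in the strain difference with AC. On them 3 of the 8 were called with AC in B6 and 1 between strains with CpG, Arg1 was called with AC in SjSS (-1.56) and in its interaction (-1.301), and Arg2 turned negative between strains with AC (-0.0901) and in that interaction (-0.14). Without the fold threshold, the counts were 7 with CpG in SjSS, 4 between strains in control, 5 with CpG between strains, and 7 and 2 for the interactions with AC and CpG.

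Leaving out 1 library gave 3 to 5 genes with AC in B6, 1 to 2 between strains with CpG, 4 to 5 with AC, 3 to 4 for the interaction with AC and 0 to 1 for that with CpG, while AC in SjSS, CpG in B6 and CpG in SjSS stayed at 6, 5 and 4. Of the leave-one-out values, 1272 kept direction and call, 13 were no longer called and 11 turned, none of which had passed the p threshold. The latter were Arg1 with AC in B6 (-0.56 to 0.0237), Nos2 between strains in control (-0.29 to 0.88), Arg2 there (-0.0662 to 0.12), Arg2 between strains with CpG (-0.10 to 0.31), Gch1 in the interaction with CpG (-0.0044 to 0.33) and Arg2 in that interaction (-0.12 to 0.30), each as its range over the libraries left out. By Spearman's rho, at least 1 of the 3 nearest genes remained for 6 of the 8 genes, and 0 for Gch1 and Acod1. Depth limited Nos2 in untreated cells, where 7 counts per group leave the ratio of SjSS to B6 between 0.348 and 3.89 (exact 95% interval).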
